A study of Mus musculus with 6 samples.

Results

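Fragments of the nuclear tRNAs for glycine (tRNA-Gly) were examined in small RNA libraries of mouse smooth muscle cells kept in hypoxia or normoxia. A sequence of the deposited table counted as a tRNA-Gly fragment where each annotation it carried was a mature nuclear tRNA-Gly. This held for 2683 of 38798 distinct sequences. By annotation, 1126 of them belonged to mature-tRNA-Gly-GCC alone, 945 to mature-tRNA-Gly-CCC alone, 542 to mature-tRNA-Gly-TCC alone, 58 to more than 1 anticodon, and 12 to an ACC annotation. A further 188 sequences carried a tRNA-Gly annotation beside that of another tRNA and were left out.

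The libraries came from primary cells of wild-type mice, smooth muscle of the pulmonary artery, which contracts the vessel wall. The hypoxia group was kept at 3% oxygen for 24 hours (n = 3), and the normoxia group was grown under standard culture conditions (n = 3). The replicates are described as biological, with no other agent named for either group. Total RNA was treated by the Pandora-seq strategy, in which enzymes take off methyl marks and repair ends that would otherwise keep a modified small RNA out of the library. The table holds tRNA fragments alone, so the cell type was not checked against marker genes.

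Transfer RNAs carry amino acids to the ribosome and read the codon with the 3 bases of their anticodon. Nucleases, among them angiogenin, cut mature tRNAs in or near the anticodon loop, and the pieces are called tRNA-derived small RNAs (tsRNAs). The 5′ fragments of tRNA-Gly-GCC are among the best known of them, since they are abundant in mouse sperm and in body fluids. DNMT2 methylates a cytosine in the anticodon loop of tRNA-Asp-GTC, tRNA-Gly-GCC and tRNA-Val-AAC, a mark known for slowing cleavage there.

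Overlapping 5′ and 3′ fragments of the table joined into 6 mature tRNA-Gly sequences, shown because positions below are counted on them, from 1 at the 5′ end. Capitals mark the anticodon, at positions 33 to 35 in the 71-nt forms and 34 to 36 in the 72-nt form. Mature tRNAs carry CCA after the last base shown.
tRNA-Gly-GCC-a: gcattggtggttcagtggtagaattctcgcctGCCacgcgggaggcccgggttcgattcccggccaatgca
tRNA-Gly-GCC-b: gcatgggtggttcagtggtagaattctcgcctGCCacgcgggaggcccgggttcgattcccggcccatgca
tRNA-Gly-CCC-a: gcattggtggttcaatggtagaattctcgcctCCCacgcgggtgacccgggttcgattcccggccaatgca
tRNA-Gly-CCC-c: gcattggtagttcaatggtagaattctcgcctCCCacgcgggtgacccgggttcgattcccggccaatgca
tRNA-Gly-CCC-b: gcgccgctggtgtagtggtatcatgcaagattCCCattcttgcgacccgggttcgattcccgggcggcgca
tRNA-Gly-TCC: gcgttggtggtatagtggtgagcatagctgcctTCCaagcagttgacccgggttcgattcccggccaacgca

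GCC-b differs from GCC-a by T5G and A66C, bases that face each other in the acceptor stem. CCC-a differs from GCC-a by only 4 bases, G15A, G33C, A43T and G45A, and CCC-c differs from CCC-a by G9A. CCC-b is a distinct tRNA with 24 differences from GCC-a. The 6 sequences held 2594 of the 2683 tRNA-Gly fragments and 99.9% of their counts. RefSeq on GRCm38.p6, the assembly that mm10 names, lists 14 genes of tRNA-Gly-GCC on chromosomes 1, 2, 3, 4, 8, 11 and 13, and 6 of tRNA-Gly-CCC on chromosomes 3, 4, 6 and 17. It lists 7 genes of tRNA-Gly-TCC on chromosomes 1, 3 and 11 and 1 of tRNA-Gly-ACC on chromosome 11. The copies share sequence, so no fragment was assigned to a single gene.

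Libraries held 510519, 2563749 and 1713960 tRNA fragment counts in hypoxia 1 to 3, and 330787, 2217965 and 1629726 in normoxia 1 to 3. Values are given as CPM, counts scaled to a library total of 1e+06, and 1 count was worth 0.390 to 3.02 CPM. Counts are of reads without molecular identifiers. The libraries numbered 1, of hypoxia and of normoxia, were unlike the rest. Over all tRNAs, 36.6% of counts in hypoxia 1 and 34.6% in normoxia 1 were 5′ fragments, against 53.0% to 58.6% in the other libraries. They were also the shallowest libraries. Some results are therefore also given from replicates 2 and 3.

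tRNA-Gly fragments made up 8.53% to 12.3% of the counts of each library in hypoxia and 8.90% to 10.5% in normoxia. They summed to 85331, 88466 and 122634 CPM in hypoxia 1 to 3, and to 91276, 104868 and 89046 CPM in normoxia 1 to 3. The groups overlapped, with hypoxia 3 the highest library. The means were 98810 ± 20692 CPM in hypoxia and 95064 ± 8564 CPM in normoxia (SD, n = 3 each; two-sided exact permutation test, p = 1). The smallest p that 3 against 3 libraries allow is 0.1. In replicates 2 and 3 alone the difference, hypoxia minus normoxia, was 8593 CPM (exact p = 1). CPM is a share of the tRNA fragment counts of a library and does not give fragments per cell. In bulk RNA, a change per cell and a change in the cells that hold the fragments cannot be told apart.

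Few sequences carried most of this signal. The 8 most abundant tRNA-Gly fragments held 39.5% of the tRNA-Gly counts and the 100 most abundant held 85%, while 390 sequences were seen as 1 count in all. Fragments seen in each of the 6 libraries numbered 629, with 97.3% of the counts. By mean CPM, GCC alone accounted for 88.0% of tRNA-Gly, fragments shared between anticodons for 5.53%, CCC for 3.94%, TCC for 2.53% and ACC for 0.0129%.

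The fragments fall into classes by the table's suffix. A 5′ fragment begins at the first base, a CCA fragment ends with the CCA tail, a 3′ end fragment ends before that tail, and every other fragment is called internal here. Internal fragments were the largest class, at 55918, 47186 and 65899 CPM in hypoxia 1 to 3 and 60876, 54470 and 48193 CPM in normoxia 1 to 3 (exact p = 0.8). The 5′ fragments summed to 26602, 38818 and 55360 CPM in hypoxia and to 27429, 48348 and 38020 CPM in normoxia (exact p = 0.9). CCA fragments summed to 2419, 2432 and 1350 CPM in hypoxia and to 2766, 2039 and 2816 CPM in normoxia (exact p = 0.4). In each class the groups overlapped, and for the 5′ class both libraries numbered 1 were the lowest of their group. The adjusted p was 1 for each of the 6 tRNA-Gly values compared in this way.

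**Figure D1:**
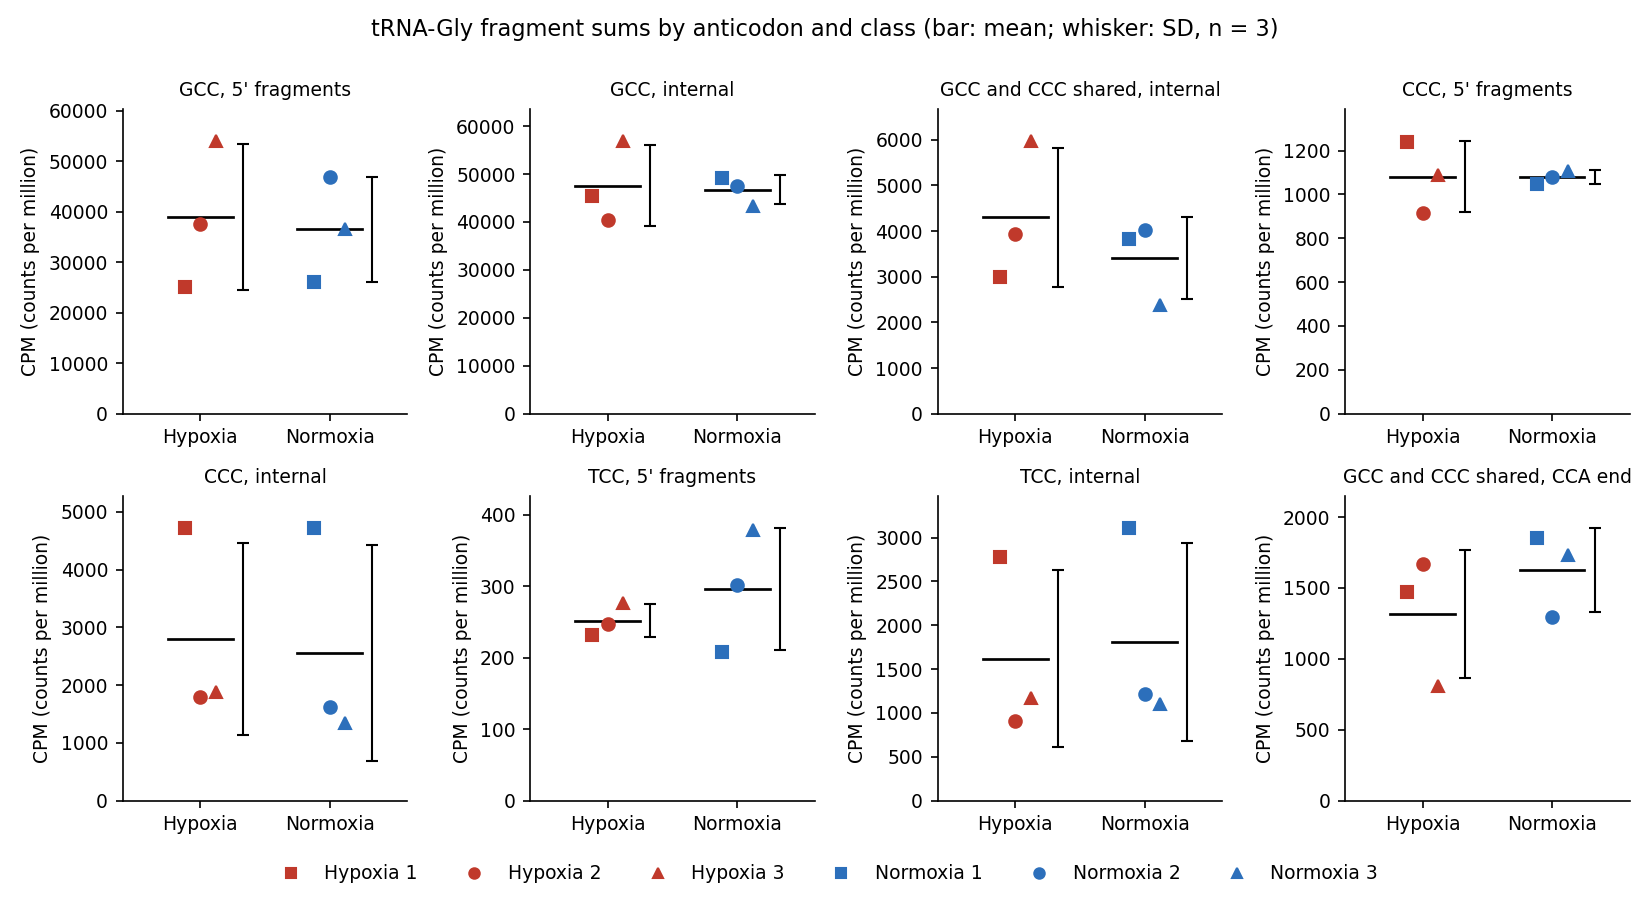
Summed CPM of tRNA-Gly fragments by anticodon and class in each library, hypoxia in red and normoxia in blue, with squares, circles and triangles for replicates 1, 2 and 3, a bar for the mean and a whisker for the SD (n = 3 each). The groups overlap in all 8 panels, and the libraries numbered 1 stand far above the others for internal CCC and TCC fragments (4717 and 4716 CPM for CCC, against 1343 to 1881 CPM in the other libraries).

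Within GCC, 5′ fragments summed to 25133, 37656 and 53993 CPM in hypoxia 1 to 3 and to 26174, 46966 and 36533 CPM in normoxia 1 to 3. The log2 change, hypoxia over normoxia, was 0.14 (SE 0.76). Internal GCC fragments summed to 45344, 40516 and 56860 CPM in hypoxia and to 49165, 47577 and 43348 CPM in normoxia, a log2 change of 0.09 (SE 0.56). The SE exceeded the change in both. These sums were tested with edgeR's quasi-likelihood test over all tRNA sets by class of the table, where 0 of 276 passed an adjusted p of 0.05, a background of 0%. None of the 15 tRNA-Gly sums tested passed, and none had an unadjusted p under 0.05, against a background of 0.725% higher and 0.362% lower. DESeq2 and limma voom called 0 of the 276 too. With the replicate block 0 passed, and at an unadjusted p under 0.05 tRNA-Gly had 0 higher and 0 lower sums, against a background of 5.80% higher and 5.07% lower.

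The 5′ fragments of GCC ended in a small number of places. Shares of their CPM ending at positions 27 to 29, in the 5′ strand of the anticodon stem, were 42.0%, 35.6% and 29% in hypoxia 1 to 3 and 45.6%, 32.2% and 29.9% in normoxia 1 to 3. Shares ending in the anticodon were 36.8%, 39.7% and 44.9% in hypoxia and 35.6%, 44.2% and 46.7% in normoxia. Ends from 15 to 26 held only 0.775% to 1.44%, and ends from 36 to 44 held 2.08% to 4.26%. The highest single peak in each of the 6 libraries was at position 34, the second base of the anticodon. The groups overlapped in all 4 shares.

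Internal GCC fragments covered the same side of the tRNA but ended most often 1 base further on, at position 35 in each library. Among 5′ fragments, those ending at position 34 outnumbered those ending at position 35 by 3.16, 2.68 and 3.19 to 1 in hypoxia 1 to 3, and by 2.54, 2.53 and 1.56 to 1 in normoxia 1 to 3. Among internal fragments the same ratio was 0.353, 0.309 and 0.323 in hypoxia and 0.287, 0.327 and 0.351 in normoxia. In 5′ fragments the share ending at 34 was above that ending at 35 in 6 of 6 libraries, by 9.04 to 19.3 percentage points (exact sign-flip test over libraries, p = 0.0312, the smallest that 6 libraries can give). In internal fragments the share ending at 35 was above that ending at 34 in 6 of 6 libraries, by 15.2 to 23.6 percentage points (exact p = 0.0312). Both stayed at 0.0312 when adjusted over 5 such comparisons, which were chosen after their values were seen.

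The ratio of ends at 34 to ends at 35 in 5′ fragments was also higher in each hypoxia library than in any normoxia library. Its means were 3.01 ± 0.288 in hypoxia and 2.21 ± 0.565 in normoxia (SD, n = 3 each; exact p = 0.1, the smallest possible). This was 1 of 5 measures without overlap among 56 shares and ratios compared. A further 239 shares of starts or ends at single positions, each with a mean of at least 0.5%, were looked at, and 16 of them did not overlap, 8 higher and 8 lower in hypoxia. Adjusted over all 295, the smallest p was 1. In internal fragments the means were 0.328 ± 0.0227 in hypoxia and 0.321 ± 0.032 in normoxia, and the groups overlapped.

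Most internal GCC fragments began at or before the D loop, the loop on the 5′ side of the tRNA, at positions 14 to 20 here. Starts at 8 to 16 took 76.9%, 74.7% and 78.5% of their CPM in hypoxia 1 to 3 and 79.2%, 77.5% and 80.9% in normoxia 1 to 3. Among internal fragments unique to GCC, the most frequent start in each library was position 14, the first base of that loop. It took 24.2%, 19% and 18% in hypoxia and 25.2%, 22.6% and 28.3% in normoxia. The groups overlapped in both measures. Fragments shared with CCC are not in these shares. Those that start after 15 and end before 33 are shared, since GCC-a and CCC-a do not differ there. The most abundant of them, from 16 to 31, had 4064 CPM in hypoxia 3. With shared fragments counted, 14 may not be the most frequent start in each library.

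**Figure D2:**
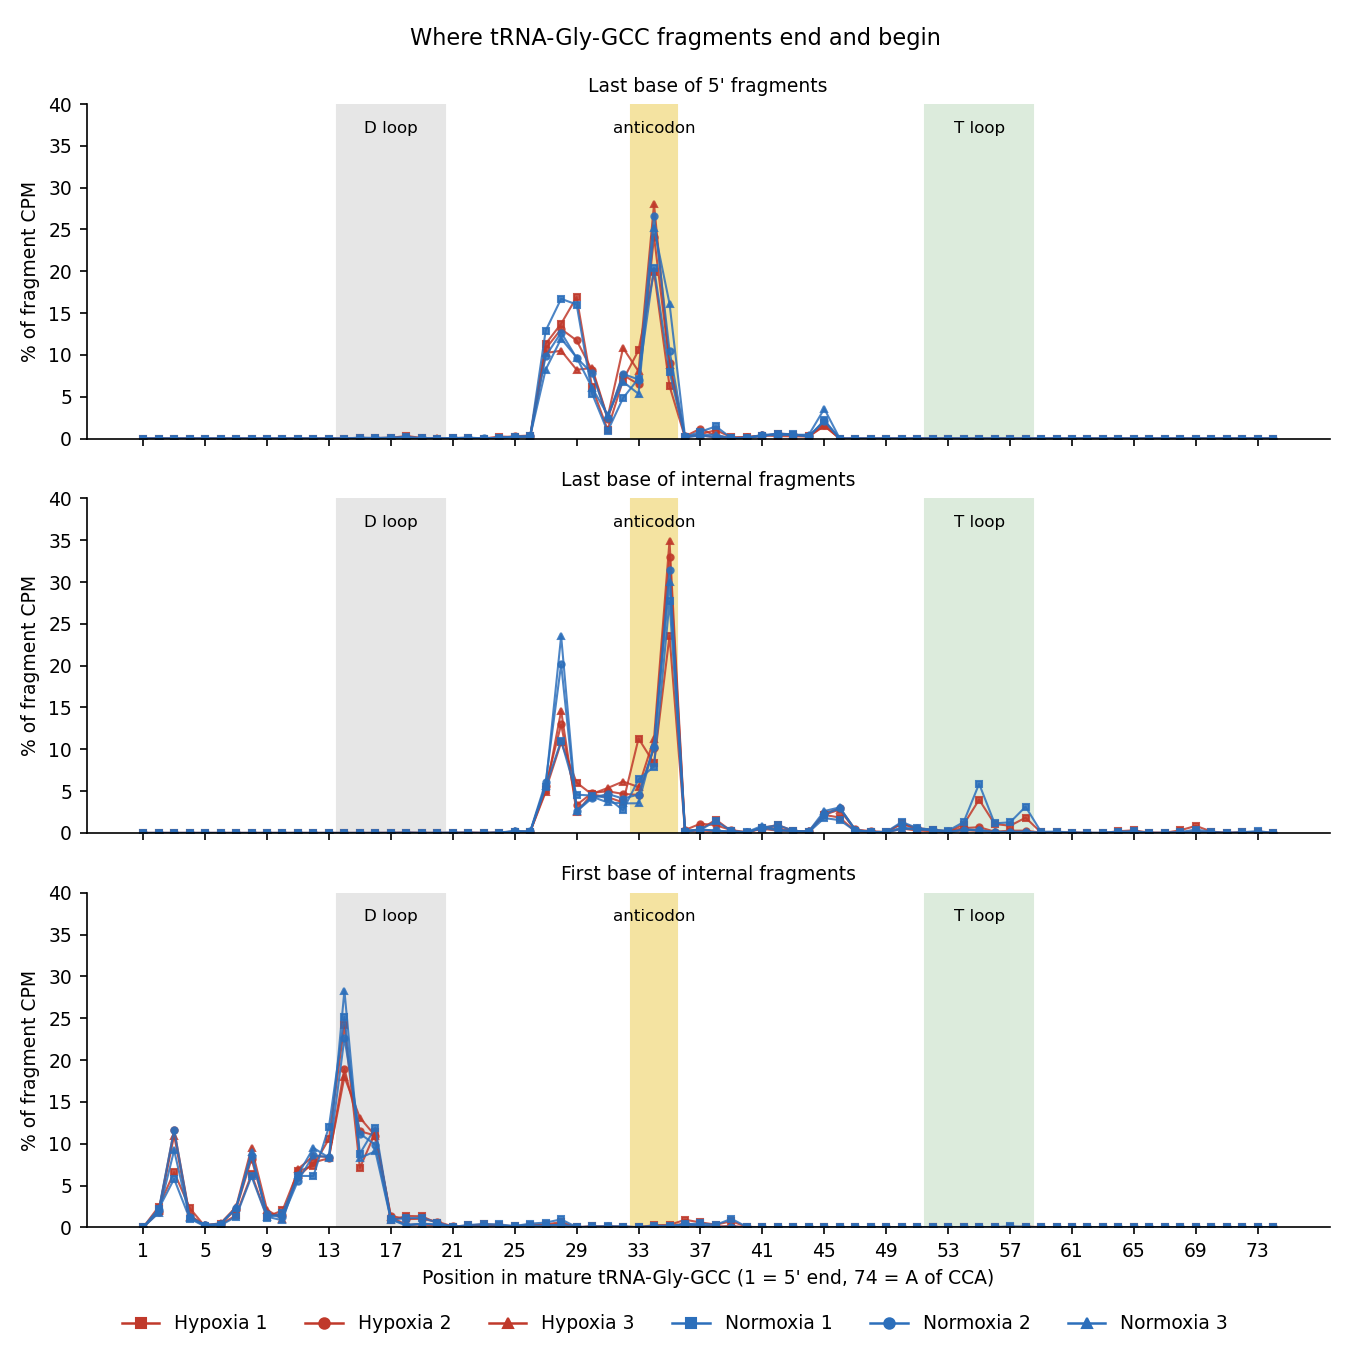
Percent of tRNA-Gly-GCC fragment CPM by the last base of 5′ fragments (top), the last base of internal fragments (middle) and the first base of internal fragments (bottom), along the mature tRNA, 1 line per library. Fragments shared with other anticodons are left out. The 5′ fragments peak at 34 and internal fragments at 35 within the anticodon, internal starts peak at 14, and ends at 55 in the T loop are most frequent in the libraries numbered 1 (3.99% in hypoxia 1 and 5.88% in normoxia 1, against 0.251% to 0.694% in the others).

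The fragments named below were taken by rule: the 8 most abundant, the most abundant of each anticodon and class, and those with the smallest p. Among the 8, all from GCC, the most abundant is the 34-nt 5′ fragment that stops inside the anticodon, and the second is a 15-nt internal fragment that runs from the D loop into the anticodon stem. The longer internal fragment from position 16 to 35 is shown beside them because it carries the whole anticodon, and the shared one because GCC-a, GCC-b, CCC-a and CCC-c all contain it.
GCC 5′ fragment 1 to 34: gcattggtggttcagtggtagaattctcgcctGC
GCC internal fragment 14 to 28: agtggtagaattctc
GCC internal fragment 16 to 35: tggtagaattctcgcctGCC
Shared internal fragment 16 to 31: tggtagaattctcgcc

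The 5′ fragment from 1 to 34 had 4635, 8794 and 14455 CPM in hypoxia 1 to 3 and 5121, 11909 and 8674 CPM in normoxia 1 to 3. The libraries numbered 1 were lowest in both groups and hypoxia 3 was highest. Its means were 9295 ± 4930 CPM in hypoxia and 8568 ± 3395 CPM in normoxia, with a log2 change of 0.12 (SE 0.76). This difference is within the spread between replicates.

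The internal fragment from 14 to 28 had 2854, 3138 and 5275 CPM in hypoxia 1 to 3 and 3455, 6652 and 7699 CPM in normoxia 1 to 3. It was lower in hypoxia in 3 of 3 same-numbered pairs, but hypoxia 3 lay above normoxia 1, so the groups overlapped. Its log2 change was -0.71 (SE 0.68), and -0.64 (SE 0.26) with the replicate number as a block, where its adjusted p was 0.629. With each library left out in turn the log2 change ranged from -1.28 to -0.36. At 15 nt it has the shortest length the table lists, so any further shortening is not seen here.

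The 5′ fragment from 1 to 35, with the whole anticodon, had 1542, 3341 and 4647 CPM in hypoxia and 2056, 4780 and 5795 CPM in normoxia. It too was lower in hypoxia in 3 of 3 pairs, with overlapping groups and a log2 change of -0.43 (SE 0.78), which ranged from -0.96 to -0.0012 with each library left out in turn. The 5′ fragment from 1 to 32, which stops just before the anticodon, had 1563, 2750 and 5548 CPM in hypoxia and 1188, 3376 and 2331 CPM in normoxia. It was higher in hypoxia in 2 of 3 pairs, with a log2 change of 0.51 (SE 0.80).

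Of the other 4 fragments, the 5′ fragments from 1 to 27, 1 to 28 and 1 to 29 had log2 changes of 0.24, -0.03 and 0.09 (SE 0.61, 0.59 and 0.52), and the internal fragment from 16 to 35 had 0.15 (SE 0.57). The fragment from 1 to 29 had similar levels in all libraries, at 3855, 4092 and 4172 CPM in hypoxia and 3870, 4212 and 3285 CPM in normoxia. In all 8 the adjusted p of edgeR's quasi-likelihood test was 1 after rounding.

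**Figure D3:**
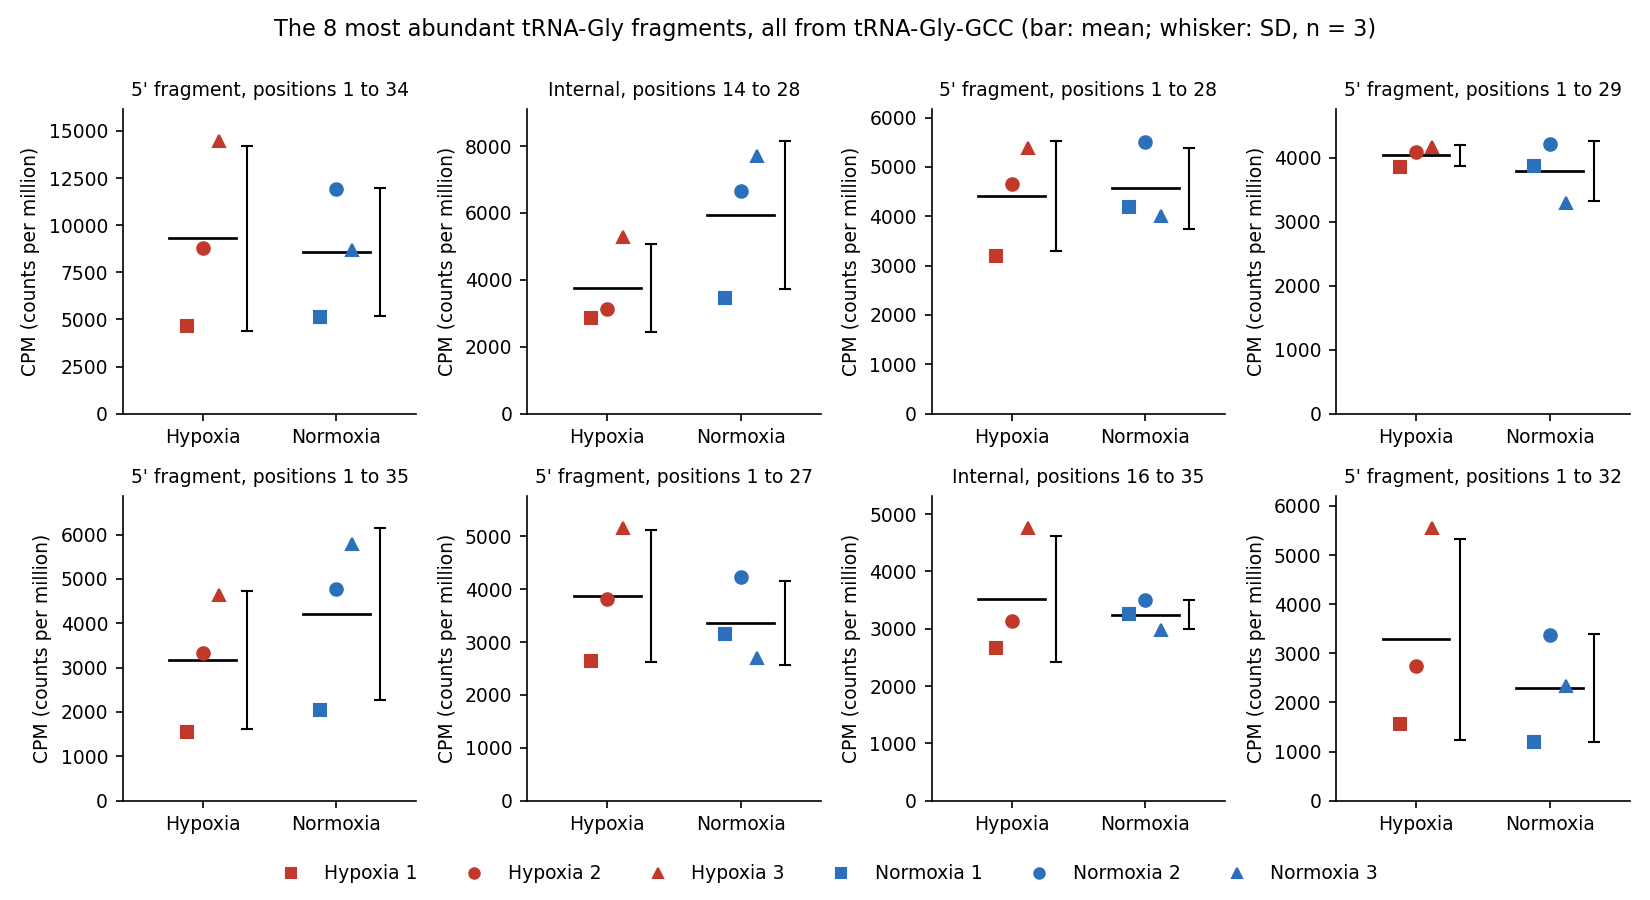
CPM of the 8 most abundant tRNA-Gly fragments in each library, titled by class and by first and last position, with hypoxia in red, normoxia in blue, a bar for the mean and a whisker for the SD (n = 3 each). The groups overlap in all 8, and the fragments from 14 to 28 and from 1 to 35 are lower in hypoxia in each same-numbered pair.

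The tRNA-Gly species differed in the shares of their fragments before, across and after the anticodon. Of the CPM assigned to GCC alone, 83.3%, 88.9% and 93.1% in hypoxia 1 to 3 and 80.8%, 91.8% and 89.9% in normoxia 1 to 3 ended in or before the anticodon. For CCC-a and CCC-c, which resemble GCC-a, these shares were 57.5%, 78.4% and 87.3% in hypoxia and 48.3%, 81.0% and 80.7% in normoxia. For CCC-b they were only 8.87%, 26.9% and 24.1% in hypoxia and 8.67%, 29.3% and 30.2% in normoxia. For TCC they were 9.35%, 19.2% and 17.2% in hypoxia and 8%, 15.1% and 21.7% in normoxia. The share was higher for GCC than for CCC-b in 6 of 6 libraries, by 59.7 to 74.4 percentage points (exact sign-flip test, p = 0.0312, the smallest possible). This comparison was chosen after its values were seen.

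Fragments that begin after the anticodon held little of the CPM assigned to GCC alone and more of that of CCC-b and TCC. Their share was 0.477% to 2.45% of GCC CPM, against 43.6%, 41.6% and 53.4% of CCC-b CPM in hypoxia 1 to 3 and 37%, 40.6% and 38.2% in normoxia 1 to 3. For TCC they held 38.6%, 39.2% and 38.4% in hypoxia and 31.1%, 38.1% and 42.5% in normoxia. For CCC-a and CCC-c they held 4.49%, 4.08% and 3.17% in hypoxia and 4.68%, 0.899% and 0.286% in normoxia. CCC-b exceeded GCC by 34.7 to 53.0 percentage points and TCC exceeded GCC by 28.8 to 41.6 percentage points, each in 6 of 6 libraries (exact sign-flip test, p = 0.0312, the smallest possible). Both comparisons were chosen after their values were seen. The rest crossed the anticodon, which in 5 of 6 libraries was the largest share of TCC CPM, at 52.1%, 41.6% and 44.4% in hypoxia and 60.9%, 46.8% and 35.8% in normoxia. For CCC-b the crossing share was 47.5%, 31.5% and 22.5% in hypoxia and 54.3%, 30.2% and 31.6% in normoxia, and for GCC it was 6.40% to 16.9% over the 6 libraries. Fragments shared between anticodons were not in these shares, and made up 5.53% of tRNA-Gly CPM. Their mean of 5365 CPM was above the 3824 CPM of all fragments assigned to CCC alone. Shared fragments include CCA fragments of GCC and CCC, which begin after the anticodon and averaged 1472 CPM. The shares of GCC and of CCC-a with CCC-c therefore describe only the fragments unique to them.

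**Figure D4:**
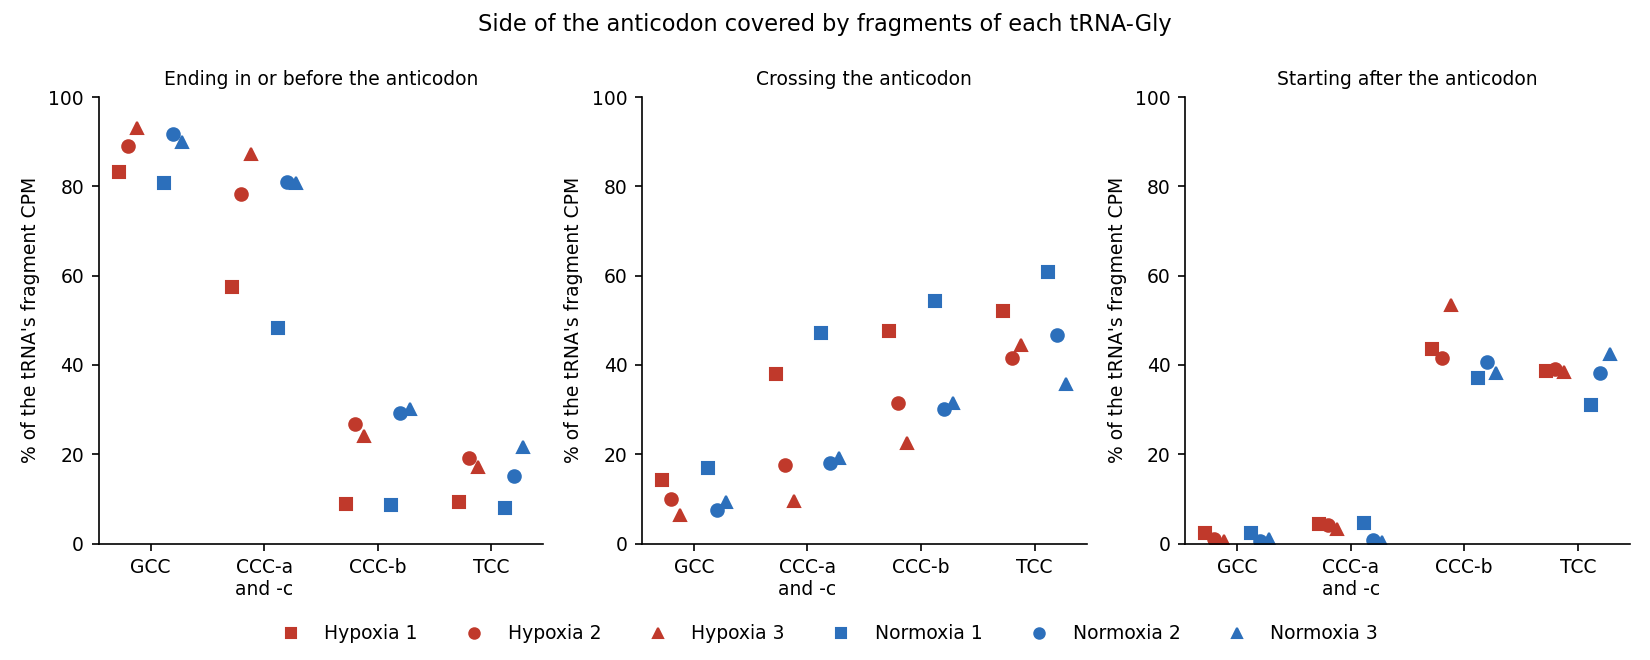
Percent of each tRNA's fragment CPM that ends in or before the anticodon (left), crosses it (middle) or starts after it (right), for GCC, CCC-a with CCC-c, CCC-b and TCC, 1 point per library, hypoxia in red left of normoxia in blue. GCC fragments end in or before the anticodon for 80.8% to 93.1% of CPM, while fragments that start after it reach 37% to 53.4% for CCC-b and 31.1% to 42.5% for TCC. Fragments shared between anticodons are left out.

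The most abundant internal fragments of CCC and of TCC both begin at the first base after the anticodon and end in the 5′ strand of the T stem. They are shown because their last 7 bases are the same while the bases just after the anticodon differ.
CCC-b internal fragment 36 to 50: attcttgcgacccgg
TCC internal fragment 37 to 51: aagcagttgacccgg

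The CCC-b fragment from 36 to 50 had 129, 269 and 398 CPM in hypoxia 1 to 3 and 90.7, 213 and 220.3 CPM in normoxia 1 to 3. It was higher in hypoxia in 3 of 3 pairs, though hypoxia 1 lay below normoxia 2 and 3. Its log2 change was 0.58 (SE 0.76), and 0.020 to 1.0 with each library left out in turn. The TCC fragment from 37 to 51 had 92.1, 83.9 and 119 CPM in hypoxia and 112, 83.4 and 71.8 CPM in normoxia, a log2 change of 0.20 (SE 0.54).

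The share of CCC-b in the CPM assigned to CCC alone was higher in each hypoxia library than in any normoxia library. Fragments that CCC-a and CCC-c share with GCC were left out of this share. The CCC-b share was 56.1%, 62.7% and 62.3% in hypoxia 1 to 3 and 52.8%, 51.7% and 47.7% in normoxia 1 to 3. The means were 60.4 ± 3.69% in hypoxia and 50.7 ± 2.63% in normoxia (SD, n = 3 each; exact p = 0.1, adjusted p = 1). The share of CCC-b CPM starting after the anticodon did not overlap either, at 46.2 ± 6.35% in hypoxia and 38.6 ± 1.80% in normoxia (exact p = 0.1, adjusted p = 1). In that share hypoxia 2, at 41.6%, lay close to normoxia 2, at 40.6%.

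CCC 5′ fragments summed to 1238, 915 and 1090.5 CPM in hypoxia 1 to 3 and 1046, 1079 and 1109 CPM in normoxia 1 to 3. Their log2 change was -0.02 (SE 0.45), and the sign was the other way with the replicate block (0.03). The most abundant of them, CCC-a from 1 to 35, had 319, 132 and 173 CPM in hypoxia and 215, 178 and 216 CPM in normoxia. Fragments unique to CCC-a ended most often at position 35, which took 28.8%, 30.1% and 30.7% of their CPM in hypoxia and 22.6%, 28% and 30.6% in normoxia. CCC-c held 0.377% of CCC-a and CCC-c 5′ CPM in hypoxia 1 and 1.04% in normoxia 1, against 11.7% to 15.2% in the other libraries.

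The summed internal CCC fragments had 4717, 1795 and 1881 CPM in hypoxia 1 to 3 and 4716, 1630 and 1343 CPM in normoxia 1 to 3. Hypoxia was higher in 3 of 3 pairs, though the libraries of pair 1 were nearly equal. The log2 change was 0.22 (SE 0.32), and 0.33 on replicates 2 and 3. Internal TCC fragments had 2774, 914 and 1173 CPM in hypoxia and 3108, 1215 and 1101 CPM in normoxia, with a log2 change of -0.12 (SE 0.31), and of -0.12 on replicates 2 and 3. In both, the libraries numbered 1 held more than any other. These libraries also held more fragments ending in the T loop, at 37.7% of CCC-b CPM in hypoxia 1 and 42.4% in normoxia 1, against 19% to 26.7% in the others. For TCC the T-loop share was 34.6% in hypoxia 1 and 40.9% in normoxia 1, against 11.6% to 16.8%. What sets the libraries numbered 1 apart was not tested.

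The TCC sum over all classes was lower in hypoxia in 3 of 3 pairs, at 3563, 1491 and 1813 CPM in hypoxia 1 to 3 and 3743, 2026 and 2091 CPM in normoxia 1 to 3. The groups overlapped through the libraries numbered 1. TCC 5′ fragments were scarce, at 231, 247 and 277 CPM in hypoxia and 209, 302 and 378 CPM in normoxia (log2 change -0.27, SE 0.66). Their most abundant member runs from 1 to 44, past the anticodon, and had 17.6, 33.2 and 27.4 CPM in hypoxia and 15.1, 40.6 and 76.1 CPM in normoxia. Its log2 change ranged from -1.31 to -0.087 with each library left out in turn.

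Internal fragments shared by GCC and CCC summed to 2989, 3937 and 5967 CPM in hypoxia 1 to 3 and to 3824, 4023 and 2389 CPM in normoxia 1 to 3. Hypoxia was lower in pairs 1 and 2 and higher in pair 3. The log2 change was 0.49 (SE 0.60), with an adjusted p of 1 after rounding by edgeR's quasi-likelihood test. It passed only in the fit with the replicate block on replicates 2 and 3 alone, a setting chosen after seeing the data (log2 change 0.67, adjusted p = 0.022), with 2 libraries per group that went opposite ways. Its main member, from 16 to 31, had 1585, 2530 and 4064 CPM in hypoxia and 2279, 2861 and 1678 CPM in normoxia.

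At the 3′ end, most fragments carried a complete CCA tail, which is added to mature tRNAs after transcription and takes the amino acid. The complete tail made up 72.2%, 86.2% and 87.4% of 3′ terminal CPM in hypoxia 1 to 3 and 78.2%, 91.1% and 93.1% in normoxia 1 to 3. Of the fragments the table classes as CCA or 3′ end, 86.1%, 98.8% and 98.1% in hypoxia and 93.1%, 99.4% and 99.4% in normoxia were CCA fragments by CPM (exact p = 0.5). Tails of CC made up 13.3%, 9.75% and 8.31% in hypoxia and 14.2%, 6.67% and 5.74% in normoxia. Tails of a single C made up 2.92%, 3.00% and 2.62% in hypoxia and 1.79%, 1.70% and 0.631% in normoxia. The share with a single C was higher in each hypoxia library than in any normoxia library (2.85 ± 0.203% in hypoxia and 1.37 ± 0.645% in normoxia; exact p = 0.1, adjusted p = 1). As CPM it summed to only 97.9, 84.6 and 40.3 in hypoxia and 63.5, 37.9 and 19 in normoxia, and these overlapped. Ends with no tail base made up 11.6%, 1.01% and 1.67% in hypoxia and 5.81%, 0.505% and 0.509% in normoxia. They were higher in hypoxia in 3 of 3 pairs, with overlapping groups and the libraries numbered 1 far above the others.

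The CCA fragments of tRNA-Gly were at most 21 nt long, although CCA fragments of other tRNAs in the table reach 45 nt. The most abundant, from 57 to 74 of GCC-a, CCC-a and CCC-c, had 535, 427 and 283 CPM in hypoxia 1 to 3 and 523, 330 and 497 CPM in normoxia 1 to 3. The matching fragment of GCC-b had 172, 98.3 and 41.4 CPM in hypoxia and 157, 86.1 and 106 CPM in normoxia. The TCC one, from 58 to 75, had 143, 169 and 187 CPM in hypoxia and 136, 249 and 320.3 CPM in normoxia. Among the tRNA-Gly fragments placed on CCC-b, 0 carried any base of the tail. CCC-b was instead seen to its last base in 3′ end fragments, the most abundant of which, from 36 to 71, had 106, 6.63 and 8.17 CPM in hypoxia and 60.5, 1.35 and 5.52 CPM in normoxia, with the libraries numbered 1 far above the others.

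Length set tRNA-Gly apart from some other tRNAs. Of the CPM of its 5′ fragments, 57.5%, 63.0% and 70.1% in hypoxia 1 to 3 and 54.0%, 66.7% and 69.2% in normoxia 1 to 3 were at least 30 nt long (63.5 ± 6.33% in hypoxia and 63.3 ± 8.15% in normoxia; exact p = 1). For tRNA-Val this share was 25.2% to 45.9% over the 6 libraries, and for all nuclear tRNAs other than tRNA-Gly together it was 11.1% to 19.4%. The share for tRNA-Gly was higher than for tRNA-Val in 6 of 6 libraries, by 28 percentage points on average (exact sign-flip test, p = 0.0312, adjusted over 3 comparisons p = 0.0469). It was higher than for those other nuclear tRNAs in 6 of 6 libraries, by 47.2 points (adjusted exact p = 0.0469). Against tRNA-Glu it was higher in 3 of 6 libraries, with a mean difference of 4.87 points (adjusted exact p = 0.312). On replicates 2 and 3 it was higher than for tRNA-Glu in 1 of 4 libraries, with a mean difference of -1.14 points.

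The shortest fragments listed, of 15 nt, made up 6.98%, 7.09% and 6.73% of tRNA-Gly CPM in hypoxia 1 to 3 and 7.86%, 8.99% and 11.6% in normoxia 1 to 3, without overlap (exact p = 0.1, adjusted p = 1). The fragment from 14 to 28 alone was 3.34%, 3.55% and 4.30% in hypoxia and 3.79%, 6.34% and 8.65% in normoxia. The other 15-nt fragments made up 3.63%, 3.54% and 2.43% in hypoxia and 4.07%, 2.64% and 2.97% in normoxia, and these overlapped. At the other limit of the table, 45 nt, lay 0.769% to 2.58% of the tRNA-Gly counts.

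Single fragments were tested over the whole table with edgeR's quasi-likelihood test. The filter on low counts kept 6452 sequences, 587 of them tRNA-Gly fragments with 97.5% of the tRNA-Gly counts, and left 2096 untested. None of the 6452 passed an adjusted p of 0.05, a background of 0%, and none of the 587 tRNA-Gly fragments did. The common dispersion, edgeR's measure of spread between replicates, was 0.706 in this fit, against 0.213 with the replicate block. With so wide a spread, 0 calls do not show that no fragment changed. At an unadjusted p under 0.05, tRNA-Gly had 0 higher and 1 lower, against a background of 0.279% higher and 0.418% lower. DESeq2 called 0 tRNA-Gly fragments (0 higher and 3 lower at unadjusted p) and limma voom called 0 (4 and 2). With the replicate block 10 sequences passed, a background of 0.155%, and 0 of the tRNA-Gly fragments were among them. At an unadjusted p under 0.05 the block gave 13 higher and 7 lower tRNA-Gly fragments (2.21% and 1.19% of 587), against a background of 3.41% higher and 2.98% lower.

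By direction, 85 of the 587 tested tRNA-Gly fragments had more CPM in hypoxia in each of the 3 same-numbered pairs, against a background of 15.0%, and 65 were lower, against 13.4%. As shares of the 587 these are 14.5% and 11.1%. Groups did not overlap for 14 higher fragments, against a background of 2.32%, and for 11 lower fragments, against 2.51%. The median log2 change was 0.06 for tRNA-Gly and 0.02 for all 6452. By anticodon it was 0.09 for 410 GCC, 0.06 for 87 CCC, -0.26 for 70 TCC and 0.40 for 20 shared fragments. For comparison it was 0.17 for tRNA-Glu, 0.25 for tRNA-Val, 0.16 for the DNMT2 substrates (645 fragments, 410 of them of tRNA-Gly-GCC itself, and 0.32 for the other 235), 0.09 for the other sources of long 5′ fragments and -0.49 for mitochondrial tRNA-Gly-TCC.

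**Figure D5:**
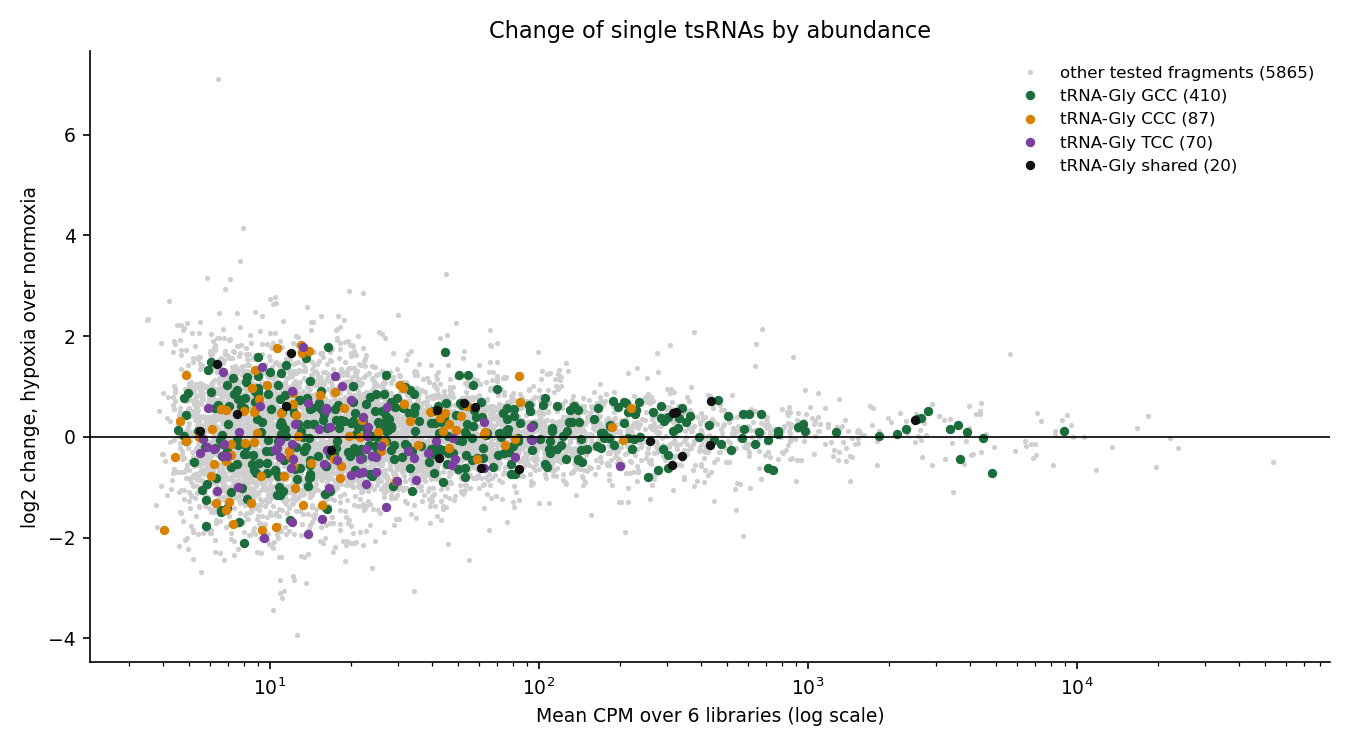
log2 change, hypoxia over normoxia, of each tested tsRNA against its mean CPM on a log scale, with tRNA-Gly fragments coloured by anticodon over the other tested fragments in grey. The tRNA-Gly fragments lie among the other fragments at every abundance, with medians of 0.09 for GCC, 0.06 for CCC, -0.26 for TCC and 0.40 for shared fragments.

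The 1 tRNA-Gly fragment with an unadjusted p under 0.05 was the internal GCC fragment from 25 to 51, named here after its values were seen. It had 1.96, 3.90 and 2.92 CPM in hypoxia 1 to 3 (1, 10 and 5 counts) and 9.07, 21.6 and 8.59 CPM in normoxia 1 to 3 (3, 48 and 14 counts), with each hypoxia library below each normoxia library. Its log2 change was -2.12 (SE 0.89), with an adjusted p of 1 after rounding by edgeR's quasi-likelihood test.

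Among tRNA-Gly fragments with a mean of at least 10 CPM, those with the smallest unadjusted p also had low counts. The TCC 5′ fragment from 1 to 29, which stops in the anticodon stem, had 3.92, 4.29 and 9.33 CPM in hypoxia 1 to 3 (2, 11 and 16 counts) and 12.1, 16.7 and 36.8 CPM in normoxia 1 to 3 (4, 37 and 60 counts). Each hypoxia library lay below each normoxia library, with a log2 change of -1.93 (SE 0.88). The GCC-b 5′ fragment from 1 to 37 had 19.6, 21.1 and 18.7 CPM in hypoxia (10, 54 and 32 counts) and 12.1, 2.25 and 7.98 CPM in normoxia (4, 5 and 13 counts). The CCC-b 5′ fragment from 1 to 18 had 17.6, 16 and 15.8 CPM in hypoxia (9, 41 and 27 counts) and 6.05, 7.21 and 1.23 CPM in normoxia (2, 16 and 2 counts). For these last fragments each hypoxia library lay above each normoxia library, with log2 changes of 1.56 (SE 0.79) and 1.76 (SE 0.85). All 3 had an adjusted p of 1 after rounding, and they were picked for their small p.

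The remaining fragments picked in this way overlapped between groups. The internal CCC-b fragment from 23 to 54, which spans the anticodon and reaches the T loop, averaged 19 ± 8.38 CPM in hypoxia and 7.21 ± 6.89 CPM in normoxia. The internal fragments of CCC-a and CCC-c from 14 to 33 and from 13 to 35 averaged 7.88 ± 5.69 and 5.74 ± 6.93 CPM in hypoxia and 18.6 ± 5.56 and 15.3 ± 3.33 CPM in normoxia (SD, n = 3 each). Their log2 changes were 1.67, -1.35 and -1.79, each with an adjusted p of 1 after rounding.

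Among 275 other sums of 1 set of tRNAs and class, the one ranked over the 6 libraries most like internal GCC fragments was that of internal fragments shared by tRNA-Leu-AAG, tRNA-Leu-CAG and tRNA-Leu-TAG (Spearman's rho 0.886). Internal mitochondrial tRNA-Leu-TAG followed at 0.657 and internal tRNA-Ala-TGC, tied with others, at 0.600. The sums share library totals, and each likeness describes only 6 libraries.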

How the data were processed

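Small RNA was measured in 3 hypoxia and 3 normoxia libraries of primary mouse pulmonary artery smooth muscle cells, grouped and numbered by their titles. The authors deposited raw counts per distinct sequence of 15 to 45 nt with its tRNA annotation and class. Per the submitters' processing notes the build was mm10. Aligner, annotation tool and filters: not given in the sources used here. Shorter and longer fragments are not listed, which bears on the peaks at 15 nt.

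The tRNA-Gly fragments and the comparison lists were chosen with earlier results of these data known. Mature sequences were joined from overlapping 5′ and 3′ fragments of the table, and fragments were placed on them by exact matching. Gene numbers and chromosomes came from RefSeq.

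Single sequences were tested over the whole table with edgeR 4.0.16 (R 4.3.3), and the test was checked on simulated counts. It was the quasi-likelihood F-test with the group as the only term, TMM factors and the filterByExpr filter. Adjustment was by Benjamini-Hochberg with a threshold of 0.05. Sums over sequences with the same tRNAs and class were fitted in the same way. The common dispersion of the data was 0.706 for single sequences and 0.642 for sums. The simulated counts had a lower dispersion, so that check does not show what the test can find in these data. DESeq2 1.42.0 and limma 3.58.1 (voom) were alternatives. CPM totals and shares were compared between groups by exact permutation tests (SciPy 1.17.1), with CPM on plain library totals. Shares compared within libraries used exact sign-flip tests. SE is the log2 change divided by the square root of F. Named were the 8 most abundant tRNA-Gly fragments, the most abundant of each anticodon set and class with a mean of at least 10 CPM, and, as 0 passed the threshold with or without the block, those with the smallest unadjusted p at that same minimum, 3 in each direction. The 1 fragment below it with an unadjusted p under 0.05 was added after its values were seen. Shares compared between positions, and measures without overlap, were chosen after their values were seen. The p-values of group comparisons measure the spread between 3 replicate libraries per group. Those of the sign-flip tests rest on differences within each of the 6 libraries.

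To check pairing, each library's deviation from its group mean was correlated with that of the library of the same number, giving 0.77, 0.49 and 0.41 for pairs 1 to 3. All exceed 0.1, the limit for pairing. With the libraries numbered 1 left out the value was -0.017, and the pairing therefore comes from them. The labels state no pairing. Alternatives were other scalings, no filter, both other tools, the replicate block, replicates 2 and 3 only, each library left out, other length limits and fragments with any tRNA-Gly annotation.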

Additional observations from a re-analysis of the deposited data

How the results depend on the processing

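Counts of calls depended on how the replicate number was treated. Against 0 tsRNAs called with the group alone, edgeR called 10 with the replicate block and 1 on replicates 2 and 3 only. Combinations chosen after seeing the data gave 12 (block, DESeq2 size factors), 26 (block, replicates 2 and 3 only), 9 (block, limma voom) and 28 (block, DESeq2), and 0 of them were tRNA-Gly fragments in any of these settings. Against 0 sums by tRNA set and class, 13 were called on replicates 2 and 3 only (0 of tRNA-Gly), 18 with the block on replicates 2 and 3 (1 of tRNA-Gly, the internal fragments shared by GCC and CCC, log2 change 0.67), 1 with the block in voom and 5 with the block in DESeq2 (0 of tRNA-Gly). The block changed no other tRNA-Gly call. Leaving out any 1 library gave 0 calls in both.

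Of the 38 log2 changes of 23 named tRNA-Gly fragments and 15 sums by anticodon and class, 22 changed sign in some setting. The CPM totals and shares tested by exact permutation are outside that count and are given first. Counting any tRNA-Gly annotation turned the difference in total CPM to -1081 and in 5′ CPM to -2827. The difference in the share of long 5′ fragments was -1.38 percentage points on replicates 2 and 3, -0.589 with a limit of 28 nt and -2.85 with 33 nt. The log2 change of the GCC 5′ fragment from 1 to 28 was 0.034 without a filter, 0.041 on replicates 2 and 3 and 0.051 there with the block, and that of CCC-a from 1 to 35 was 0.069 by library size. Internal fragments shared by GCC, CCC and TCC were at -0.038 on replicates 2 and 3, and at -0.044 there with the block. CCC 5′ fragments were at 0.0202 with DESeq2 size factors, 0.0044 by library size, 0.0196 by DESeq2, 0.025 with the replicate block, 0.0574 with the block and DESeq2 size factors and 0.0565 with the block in DESeq2. The cause was not tested in any of these.

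With 1 library left out, differences ranged from -8165 to 10486 for total CPM, -5222 to 9157 for 5′ CPM, -2961 to 6395 for internal CPM, -4.41 to 3.27 points for the long 5′ share and -5.20 to 1.17 points for the CCA share. The log2 changes of GCC 5′ fragments ranged from -0.51 to 0.59 (1 to 34), -0.34 to 0.36 (1 to 28), -0.10 to 0.39 (1 to 29), -0.17 to 0.70 (1 to 27), -0.96 to -0.0012 (1 to 35) and -0.29 to 1.04 (1 to 32). Those of other fragments ranged from -0.31 to 0.46 (GCC 16 to 35), -0.21 to 0.83 (shared 16 to 31), -0.40 to 0.17 (shared CCA), -0.25 to 0.13 (CCC-a 1 to 35), -0.51 to 0.0099 (GCC-b CCA), -0.14 to 0.43 (TCC 37 to 51) and -0.88 to 2.94 (CCC-b 36 to 71). Among sums the ranges were -0.32 to 0.39 for internal GCC, -0.39 to 0.56 for 5′ GCC, -0.81 to 0.21 for CCA GCC, -0.065 to 2.87 for 3′ end GCC, -0.052 to 0.93 for internal GCC and CCC, -0.0522 to 0.23 for internal fragments of all 3 anticodons, -0.31 to 0.20 for 5′ CCC, -1.22 to 2.23 for 3′ end CCC, -0.66 to 0.080 for 5′ TCC and -0.24 to 0.0040 for internal TCC. The libraries numbered 1 were the shallowest, at 3.02 CPM per count in normoxia 1, and limit what can be said of fragments below about 10 CPM.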

Other observations

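The annotation tRNA-Gly-ACC, which the tRNA-Gly set also takes in, held 12 sequences and 39.2, 6.63 and 4.08 CPM in hypoxia 1 to 3 and 18.1, 6.76 and 0 CPM in normoxia 1 to 3. None of its sequences passed the filter on low counts. Mitochondrial tRNA-Gly-TCC, a separate gene, had 34.3% to 85.2% of its 5′ CPM at 30 nt or longer over the 6 libraries, and its 161 tested fragments included 122 below 0 and 39 above 0 in log2 change, hypoxia over normoxia. With the replicate block, 1 was higher and 20 were lower at an unadjusted p under 0.05, and 0 passed the adjusted threshold.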
